A study of Homo sapiens with 6 samples.

Results

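The 44 keratin genes measured here are those whose probe sets carry exactly 1 gene symbol in the platform annotation, with the symbol KRT, a number and at most 1 further letter. Keratin-associated proteins, pseudogenes and antisense transcripts were left out. These 44 genes, read by 56 probe sets, were set among 19775 genes in all. The arrays compared Caco-2 cells transfected with an siRNA against SDC1 (3 arrays) with Caco-2 cells transfected with a negative control siRNA (3 arrays). Caco-2 is an established human line from a colorectal adenocarcinoma whose cultured cells can take on enterocyte features, and SDC1 encodes syndecan-1, a heparan sulfate proteoglycan of epithelial cell surfaces. The sources used here give neither the siRNA sequences nor the dose or time of transfection. The question was which keratin transcripts differ after SDC1 is silenced, and whether keratins of simple epithelia differ from those of stratified epithelia and hair.

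Keratins are the intermediate filament proteins of epithelial cells. Each filament is built from heterodimers of an acidic type I chain and a basic type II chain, so cells express them in matched pairs. Simple epithelia such as the gut lining use KRT8 with KRT18, joined by KRT19, KRT20 and, in ducts and some carcinomas, KRT7. The basal layer of stratified epithelia uses KRT5 with KRT14, its upper layers switch to pairs such as KRT1 with KRT10, and hair has its own set. Desmosomes anchor the filaments through plakins, and syndecan-1 sits in the same lateral and basal membranes of epithelia.

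Values were log2 signals relative to the median of each probe set over the 6 arrays, so differences between arrays were kept and absolute levels were not. A rough signal class (log2 of 8 to 16, 4 to 8, or below 4) could be read from the steps in which the numbers are stored. Probe sets with values on both sides of a bound were put in the lower class. A dimmer probe set can also be put in a higher class, where all 6 values fall by chance on its coarser steps. How often this happened was not measured. SDC1 itself checked the labels: it was 0.37, 0.35 and 0.35 in the control arrays and -0.50, -0.62 and -0.34 in the SDC1 siRNA arrays. Its log2 difference was -0.84 ± 0.08 (standard error; limma adjusted p = 0.0238), and the groups lay far apart. This call was lost after quantile normalization (limma adjusted p = 0.083) and when any 1 array was left out (0.0615 to 0.326). Tested singly, both SDC1 probe sets had a limma adjusted p = 0.121, with differences of -0.83 and -0.85. Of 11 enterocyte and simple-epithelium markers measured, 6 had a probe set at 8 to 16. These were EPCAM, CDH1 and CDX1, and KRT8, KRT18 and KRT19, which are themselves among the keratins studied. VIL1 and CDX2 reached 4 to 8 with 1 probe set each, and their other probe sets (3 for VIL1, 1 for CDX2) were below 4. The differentiation markers FABP1, APOB and KRT20 were all in the class below 4. Of the squamous markers, KRT5 and DSG3 reached 4 to 8 while KRT14 and IVL were below 4, and of 6 fibroblast markers only COL1A1 reached 8 to 16. No marker passed the test, and marker differences ran from -0.04 to 0.19 for the epithelial list, from 0.10 to 0.27 for the 4 squamous genes and from -0.62 to 0.10 for the fibroblast list. Differences are SDC1 siRNA minus control siRNA throughout, and in such bulk RNA fewer cells of a type and less RNA per cell cannot be told apart. Nothing in the labels says that the arrays came from separate cultures, so a p-value here covers the spread among 6 arrays that may be technical repeats.

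No keratin passed the test of SDC1 siRNA against control siRNA. Of 44 keratin genes, 0 reached a limma adjusted p of 0.05 over all genes, where 5 of 19775 genes (0.0253%) did, and the lowest keratin value was 0.309 for KRT7. At an unadjusted p under 0.05 there were 5 keratins, all with higher values under SDC1 siRNA (KRT7, KRT72, KRT79, KRT33B and KRT5), or 11.4%, beside 10.6% of all genes. Of all genes, 5.43% had such a p with higher values and 5.19% with lower ones. In 7 keratins all 3 SDC1 siRNA arrays lay above all 3 control arrays, and in 0 keratins did they lie below, where 8.26% of all genes had separate groups in the first direction and 8.47% in the second. Tested as probe sets, 0 of 56 passed, as did 0 of 54613 overall (0%), 6 had an unadjusted p under 0.05 (8.33% overall), and 10 had separate groups in the higher direction (7.06% overall). With array weights (0.197% of all genes called) and with the brighter classes alone (0.0731% called), 0 keratins passed as well. The difference was above 0 for 31 keratins and below 0 for 13, with a median of 0.05 and a range from -0.15 to 0.34. Over all genes the median was 0.01, and 52.1% were above 0. Leaving out control replicate 2 gave 27 keratins above 0 and a median of 0.02, and leaving out SDC1 siRNA replicate 2 gave 30 and 0.03. Leaving out any other array gave 32 to 34 above 0 and medians of 0.05 to 0.07.

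**Figure D1:**
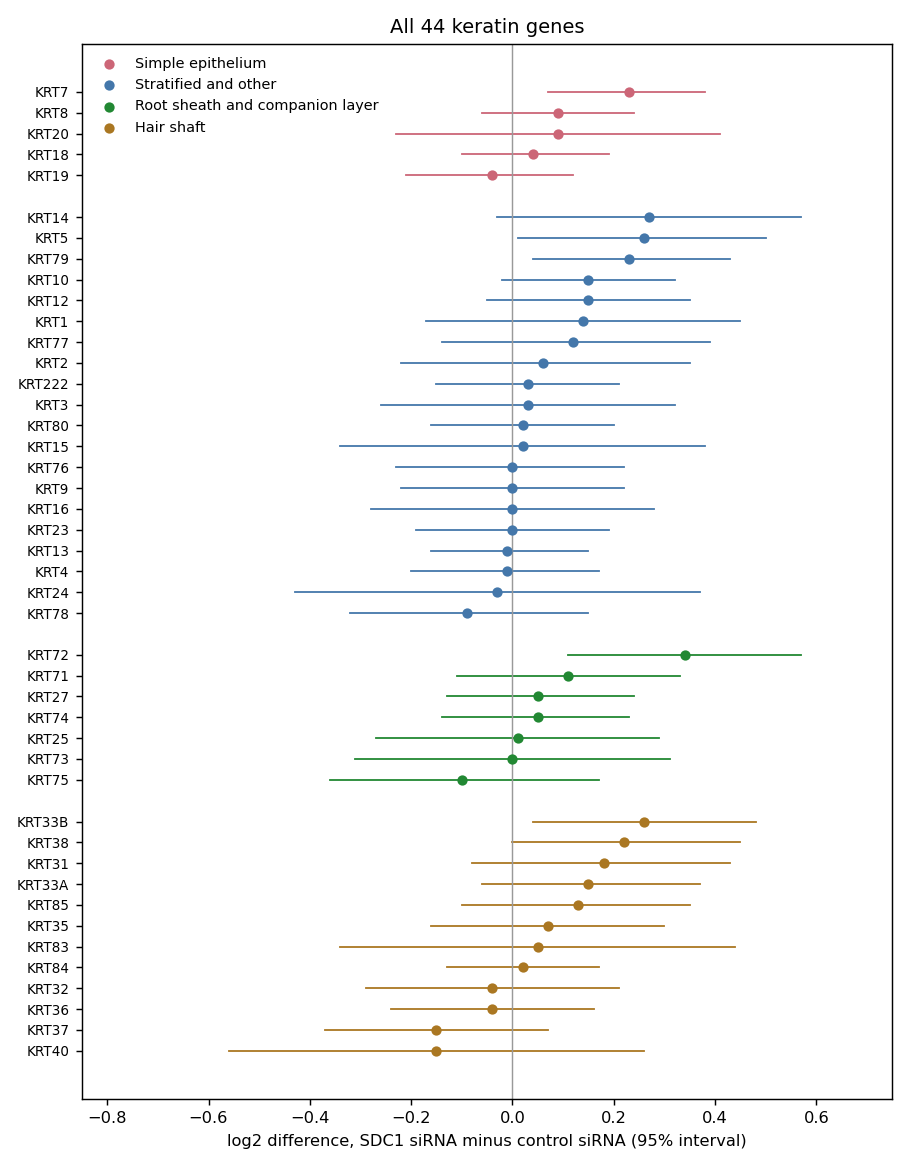
Log2 difference (SDC1 siRNA minus control siRNA, 3 arrays each) of the 44 keratin genes, with points for the estimate, lines for its 95% interval and colours for the keratin class. All points lie between -0.15 and 0.34, and the intervals of KRT7, KRT72, KRT79, KRT33B and KRT5 lie above 0 before correction for the number of genes.

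Among the 5 simple-epithelium keratins, KRT7 had the clearest difference between the groups, while KRT8, KRT18 and KRT19, which build most filaments of the gut epithelium, differed by less than 0.1 on the log2 scale. Of the 5, only KRT19 had a difference below 0, and the median was 0.09. KRT7, a type II keratin of ducts and glands that normal colon largely lacks, was -0.10, -0.19 and -0.08 in the control arrays. In the SDC1 siRNA arrays KRT7 was 0.08, 0.12 and 0.11. The 3 SDC1 siRNA values sat close together and all lay above the control values, with a gap of 0.156. The difference was 0.23 ± 0.07 (standard error, n = 3 per group; 1.17-fold, 95% interval 1.05 to 1.3), with a limma adjusted p = 0.309.

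KRT8, the type II partner in simple epithelia, was -0.05, -0.10 and 0.00 with control siRNA and 0.04, 0.09 and 0.00 with SDC1 siRNA. The groups just failed to overlap, by 0.006, and the difference was 0.09 ± 0.07 (limma adjusted p = 0.684). KRT18, its type I partner, was -0.03, -0.04 and 0.01 in the control arrays and -0.01, 0.07 and 0.01 in the SDC1 siRNA arrays, and the groups overlapped. Its difference was 0.04 ± 0.06 (limma adjusted p = 0.858). The 95% intervals bound the KRT8 difference between 0.958-fold and 1.18-fold and the KRT18 difference between 0.931-fold and 1.14-fold. Each of these genes had 1 probe set, of the type _x_at, which can also bind related sequences, in the class of 8 to 16.

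KRT19, the smallest keratin, which lacks most of the tail domain, was -0.02, 0.02 and 0.05 in the control arrays and -0.13, -0.02 and 0.06 in the SDC1 siRNA arrays. Its values overlapped, and the difference was -0.04 ± 0.07 (limma adjusted p = 0.877; 0.864-fold to 1.09-fold). KRT20, a keratin of differentiated intestinal cells, was 0.13, -0.08 and -0.38 with control siRNA and 0.08, 0.10 and -0.24 with SDC1 siRNA. Replicate 3 of each group was its lowest, and the spread within a group (SD 0.26 and 0.19) was larger than the difference of 0.09 ± 0.14 (limma adjusted p = 0.87). Its only probe set was in the class below 4, and its difference ran from -0.04 to 0.21 when arrays were left out in turn. An exact two-sided permutation test gave p = 0.1 for KRT7 and for KRT8, the smallest value 3 arrays against 3 can give, and 0.2, 0.7 and 0.7 for KRT18, KRT19 and KRT20.

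**Figure D2:**
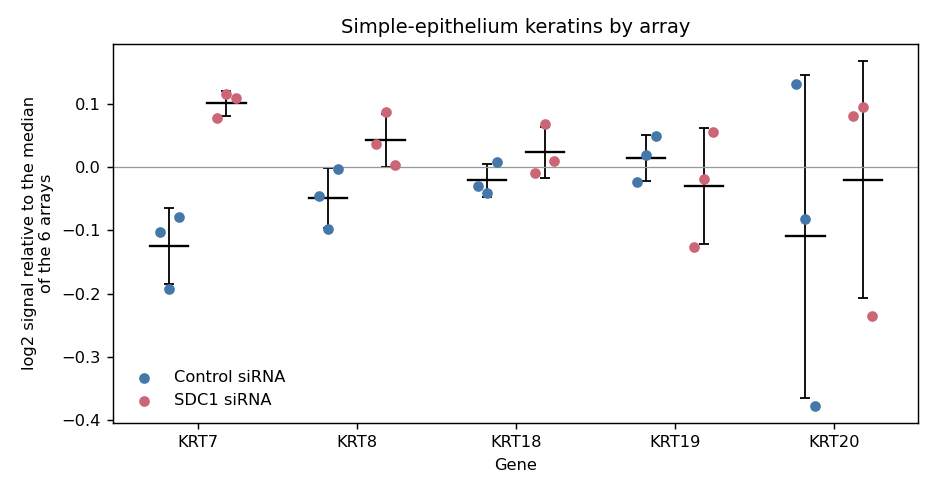
Log2 signal relative to the median of the 6 arrays for the 5 simple-epithelium keratins, with a point per array, a bar at the mean of each siRNA group and whiskers of 1 SD (n = 3). KRT7 values are separate between the groups (-0.19 to -0.08 against 0.08 to 0.12), KRT8, KRT18 and KRT19 values lie near 0, and KRT20 values spread from -0.38 to 0.13.

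The 39 keratins of stratified epithelia, hair follicle and hair had a median difference of 0.03, with 27 above 0, against 0.09 with 4 of 5 above 0 for the simple keratins. The simple keratins span -0.04 to 0.23 and lie within the range of the others, -0.15 to 0.34. The order of the medians was not kept in every setting: without control replicate 3 it was 0.06 for the simple keratins and 0.07 for the others, and with array weights both were 0.05. No test was run of one class against the other, since the classes were set with results of these data known. By array, the median of the simple keratins was -0.03, -0.08 and 0.00 with control siRNA and 0.04, 0.09 and 0.01 with SDC1 siRNA. For the other keratins it was -0.02, -0.08 and 0.02 with control siRNA and 0.02, 0.06 and 0.01 with SDC1 siRNA. In both classes control replicate 2 was the lowest array and SDC1 siRNA replicate 2 the highest.

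Of 20 keratins of stratified epithelia, among which KRT23, KRT24, KRT80 and KRT222 were also placed, 14 had a difference above 0, and the median was 0.02. KRT10, the type I keratin of the upper epidermal layers, was -0.09, -0.01 and -0.08 with control siRNA and 0.00, 0.10 and 0.18 with SDC1 siRNA. The groups were separate by 0.005, and the difference was 0.15 ± 0.07 (limma adjusted p = 0.516). All 3 of its probe sets were in the class of 8 to 16 and gave 0.20, 0.14 and 0.12. KRT79, a type II keratin of hair follicle ducts and sebaceous glands, was -0.28, -0.02 and -0.26 with control siRNA and 0.08, 0.02 and 0.03 with SDC1 siRNA. Control replicate 2 lay near the SDC1 siRNA arrays, and the difference was 0.23 ± 0.09 (limma adjusted p = 0.39).

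The basal pair KRT5 and KRT14, described after their values were seen, had the 2 largest differences of this class. KRT5 was -0.35, -0.16 and 0.03 in the control arrays and -0.03, 0.12 and 0.19 in the SDC1 siRNA arrays, a difference of 0.26 ± 0.11 (limma adjusted p = 0.454). KRT14 was 0.01, -0.05 and -0.34 in the control arrays and -0.01, 0.39 and 0.04 in the SDC1 siRNA arrays, a difference of 0.27 ± 0.13 (limma adjusted p = 0.513). The groups overlapped in both genes, and the control array with the lowest value was not the same, replicate 1 for KRT5 and replicate 3 for KRT14. KRT14 was in the class below 4. In the other classic pairs the differences of the type II and type I partner were 0.14 and 0.15 for KRT1 and KRT10, 0.03 and 0.15 for the corneal pair KRT3 and KRT12, -0.01 and -0.01 for the mucosal pair KRT4 and KRT13, and 0.09 and 0.04 for KRT8 and KRT18. The largest gap within a pair was 0.12, between KRT3 and KRT12, and it was not tested. KRT16, the keratin of activated and wounded epidermis, was at 0.00 ± 0.12, and KRT15, a keratin of basal and follicle stem cells, at 0.02 ± 0.16. KRT23, a type I keratin found in some colorectal tumours, was at 0.00 ± 0.08 in the class of 8 to 16. The other keratins of this class ran from -0.09 for KRT78 to 0.15 for KRT12.

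KRT72, a type II keratin of the inner root sheath of the hair follicle, had the largest difference of all 44 keratins. It was -0.34, -0.10 and -0.08 in the control arrays and 0.08, 0.32 and 0.09 in the SDC1 siRNA arrays. The groups were separate, with control replicate 1 lowest and SDC1 siRNA replicate 2 highest, and the difference was 0.34 ± 0.10 (1.26-fold, 95% interval 1.08 to 1.48; limma adjusted p = 0.312). Its neighbours in the type II cluster, the root sheath keratins KRT73 and KRT74, were at 0.00 ± 0.13 and 0.05 ± 0.08. Of 7 root sheath and companion layer keratins, 5 were above 0, with a median of 0.05. The lowest was KRT75, of the companion layer, at -0.10 ± 0.11.

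Of 12 hair shaft keratins, 8 had a difference above 0, and the median was 0.06. KRT33B, a type I hair keratin, was -0.20, -0.38 and -0.02 with control siRNA and 0.03, 0.02 and 0.13 with SDC1 siRNA, a difference of 0.26 ± 0.10 (limma adjusted p = 0.401). Its groups were separate, and its probe set was in the class below 4. KRT38, also type I, was -0.02, -0.36 and -0.09 with control siRNA and 0.02, 0.06 and 0.12 with SDC1 siRNA, a difference of 0.22 ± 0.10 (limma adjusted p = 0.472). The groups were separate by 0.030. Control replicate 2 was the low array in both, and without it KRT33B was at 0.17 and KRT38 at 0.12. KRT37, which lies next to KRT38 in the type I cluster, was at -0.15 ± 0.09, the other direction. KRT40, at -0.15 ± 0.18, had the widest spread in the control arrays, from -0.28 to 0.51.

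Type and signal class also described the members. The 24 type I keratins had a median difference of 0.03 with 16 above 0, and the 20 type II keratins a median of 0.06 with 15 above 0. Of the 8 keratins with a probe set at 8 to 16 (KRT7, KRT8, KRT10, KRT18, KRT19, KRT23, KRT72 and KRT85), 7 were above 0, their median was 0.11, and 4 had separate groups, all higher. Among all 5977 genes of that class 43.1% were above 0, the median was -0.01, and 7.04% had separate groups in the higher direction and 11.8% in the lower. Of the 17 keratins at 4 to 8, 58.8% were above 0 with a median of 0.02, beside 53.2% and 0.01 for all genes of that class. Separate groups were found in 2 of these keratins in the higher direction and 0 in the lower. Among all 9081 genes of that class these counts were 814 and 817. Of the 19 keratins below 4, 73.7% were above 0 with a median of 0.06, beside 61.3% and 0.04 for all genes of that class. Here 1 keratin had separate groups in the higher direction and 0 in the lower. Among all 4717 genes of that class these counts were 398 and 151.

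Control replicate 2 and SDC1 siRNA replicate 2 stood at the ends for many keratins. Control replicate 2 held the lowest of the 6 values in 19 of 44 keratins (43.2%), and SDC1 siRNA replicate 2 held the highest in 15 (34.1%). Over all genes these shares were 24.6% and 17.2%. The median keratin value was -0.08 in control replicate 2 and 0.07 in SDC1 siRNA replicate 2, against -0.03 to 0.02 in the other 4 arrays. These arrays were picked by their keratin values, so leaving them out cannot measure their part in the keratin differences. The array weights, set over all genes, were lowest for control replicate 2 (0.468). SDC1 siRNA replicate 2 had a weight of 1.43, and the other arrays had 0.751 to 1.8. With these weights 27 keratins (61.4%) were above 0, beside 51.5% of all genes. Without control replicate 2, 27 keratins were above 0 and 8 had separate groups in the higher direction (14.5% of all genes). Without SDC1 siRNA replicate 2, 30 were above 0 and 9 had separate groups in the higher direction (11.5% of all genes). Without control replicate 1 these counts were 32 and 8 (13.4%). The count above 0 was 34 without control replicate 3, SDC1 siRNA replicate 1 or SDC1 siRNA replicate 3. In that order, 14, 13 and 9 had separate groups in the higher direction (15.3%, 14% and 13.2% of all genes). Over the 6 fits, 0 to 2 keratins had separate groups in the lower direction (10.6% to 15.2% of all genes).

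**Figure D3:**
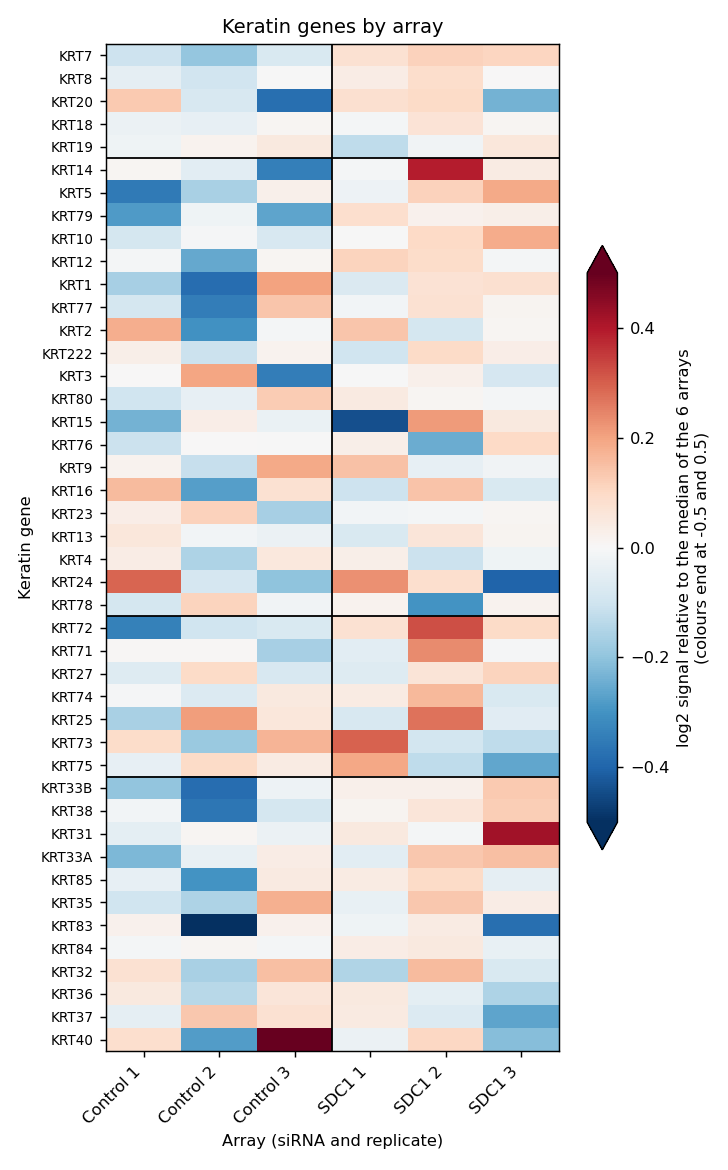
Heat map of the 44 keratin genes (rows, by class from top: simple, stratified and other, root sheath and companion layer, hair shaft) in the 6 arrays (columns), coloured by log2 signal relative to the median of the 6 arrays. Control replicate 2 holds the lowest value in 19 keratins and SDC1 siRNA replicate 2 the highest in 15.

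Probe sets of the same keratin did not always give similar differences. KRT7 had 4: the probe set at 8 to 16 gave 0.23 ± 0.08 and that at 4 to 8 gave 0.34 ± 0.13, both with separate groups, while the 2 below 4 gave 0.00 ± 0.11 and -0.05 ± 0.08. The mean of all 4 put KRT7 at 0.13 (limma adjusted p = 0.537). KRT78, a keratin of stratified epithelia, gave -0.09 ± 0.11 at 4 to 8, the value used for the gene, and 0.35 ± 0.10 below 4. The latter had the lowest adjusted p of the 56 probe sets (limma, 0.44). The 2 probe sets of KRT4, a mucosal keratin, gave 0.16 ± 0.11 and -0.19 ± 0.11. The latter was the only keratin probe set with all SDC1 siRNA arrays below the controls. Its groups barely separated: the lowest control value and the highest SDC1 siRNA value both rounded to 0.00. The KRT19 probe sets gave -0.04 and -0.12, and those of KRT10 were all above 0.

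**Figure D4:**
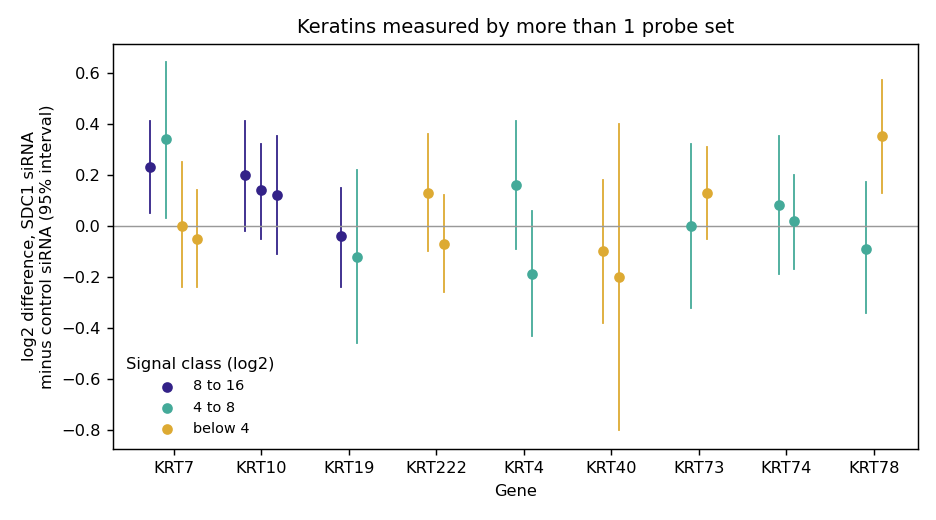
Log2 difference (SDC1 siRNA minus control siRNA) with its 95% interval for each probe set of the 9 keratins measured by more than 1, coloured by signal class. The brighter KRT7 probe sets lie at 0.23 and 0.34 and the dim ones at 0.00 and -0.05, and the KRT78 and KRT4 probe sets lie on both sides of 0.

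Promoters of 29 of the 44 keratins were found in the RefSeq table (GRCh38.p14), as the 250 bases before and 50 after each start. They are shown for 4 keratins with separate groups: KRT8 (simple), KRT10 (stratified) and KRT33B and KRT38 (both hair). These were chosen to set KRT8, with none of the motifs at its listed start, beside keratins with a TATA box. A further stratified keratin with separate groups and a promoter, KRT79, had no TATA box and is not shown. Both strands were searched for 4 motifs: the TATA box (TATAAA), the GC box (GGGCGG), the E-box that Snail-type repressors bind (CAGGTG) and the AP-1 site (TGANTCA). The first of these and its complement can share letters, and a gene counted once for each motif, whichever of its listed starts held it. Capitals mark the matches, all lines run 5′ to 3′ on the minus strand, and KRT8 lies at chr12:52926420-52926719, KRT10 at chr17:40822565-40822864, KRT33B at chr17:41369764-41370063 and KRT38 at chr17:41440934-41441233.
KRT8: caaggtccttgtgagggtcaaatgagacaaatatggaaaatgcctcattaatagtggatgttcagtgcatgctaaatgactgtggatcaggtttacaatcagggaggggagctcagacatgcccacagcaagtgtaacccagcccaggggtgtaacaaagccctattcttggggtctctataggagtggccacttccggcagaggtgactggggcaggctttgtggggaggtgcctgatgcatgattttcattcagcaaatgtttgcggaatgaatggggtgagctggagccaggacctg
KRT10: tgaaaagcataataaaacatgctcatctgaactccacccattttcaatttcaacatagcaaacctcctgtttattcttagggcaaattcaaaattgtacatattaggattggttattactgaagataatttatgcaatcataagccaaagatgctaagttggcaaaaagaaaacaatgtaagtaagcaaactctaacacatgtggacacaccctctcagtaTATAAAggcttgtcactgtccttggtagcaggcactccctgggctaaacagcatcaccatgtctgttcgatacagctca
KRT33B: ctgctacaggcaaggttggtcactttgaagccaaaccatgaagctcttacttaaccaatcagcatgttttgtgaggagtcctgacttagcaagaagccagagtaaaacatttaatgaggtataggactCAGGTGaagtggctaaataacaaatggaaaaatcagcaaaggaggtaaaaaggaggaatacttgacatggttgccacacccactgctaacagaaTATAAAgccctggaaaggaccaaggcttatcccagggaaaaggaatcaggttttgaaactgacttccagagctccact
KRT38: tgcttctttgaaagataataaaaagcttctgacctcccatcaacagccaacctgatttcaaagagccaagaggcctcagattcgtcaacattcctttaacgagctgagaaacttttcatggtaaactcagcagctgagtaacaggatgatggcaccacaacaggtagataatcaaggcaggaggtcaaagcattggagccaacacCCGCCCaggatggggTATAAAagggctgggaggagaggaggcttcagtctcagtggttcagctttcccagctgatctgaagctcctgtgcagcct

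A TATA box lay in the promoters of 16 of the 29 keratins, where 11.5% of 35116 promoters of this length held it on either strand. On the gene's own strand and with its first base between -35 and -25 from the start, a window set after the positions were seen, 14 of 29 keratins (48.3%) had one, against 2.17% of all promoters. None of the 14 was a simple keratin. KRT8 and KRT20, the 2 of that class with a promoter in the table, had no exact match at the start listed for each. Any other starts of these genes were not searched. In KRT10 it began at -29, in KRT33B at -28 and in KRT38 at -30. KRT33B also held the E-box at -122, and KRT38 a GC box at -45. KRT79, which is not shown, held the E-box at -168. A GC box was found in 6 of 29 (45% of all promoters), the CAGGTG E-box in 6 of 29 (20.6%) and the AP-1 motif in 0 of 29 (7.71%). The keratin counts are per gene over all its listed starts, while the shares of all promoters are per single start. The log2 difference with SDC1 siRNA had a median of 0.06 in the 14 keratins with the TATA box in that window, 10 of them above 0. It was 0.05 in the other 15, with 9 above 0. A match describes these letters in this window and is not a measured site.

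Genes that anchor or accompany keratins also held 0 members past the threshold. The other intermediate filament list had 15 genes, 11 of them above 0, and its median was 0.07, or 0.04 without control replicate 1. VIM, the vimentin of mesenchymal and many cultured cells, was 0.29, 0.18 and 0.17 with control siRNA and -0.17, -0.38 and -0.19 with SDC1 siRNA. Its groups were far apart, and the difference was -0.46 ± 0.08 (limma adjusted p = 0.126), or -0.28 as the mean of its probe sets. Of the 6 fibroblast markers, 4 had a difference below 0 and 2 above 0, with a median of -0.17. LUM was at -0.62 ± 0.17 and COL3A1 at -0.29 ± 0.10 (neither passed). DCN was at 0.10 ± 0.06, with separate groups in the higher direction, and COL1A1 at 0.07 ± 0.10. The part of these markers in the VIM difference was not tested. BFSP2, a lens filament protein, was at 0.20 ± 0.10 (limma adjusted p = 0.524) with overlapping groups. LMNB1, a nuclear lamin named after its value was seen, was at -0.30 ± 0.15.

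Of 16 plakins, plaque and keratin-binding proteins, 10 were above 0 with a median of 0.04 (0.02 without control replicate 1), and 4 (25%) had an unadjusted p under 0.05, beside 10.6% of all genes. EPPK1, epiplakin, a plakin that binds keratin bundles, was -0.31, -0.19 and -0.12 in the control arrays and 0.13, 0.14 and 0.23 in the SDC1 siRNA arrays. Its difference was 0.37 ± 0.08 (limma adjusted p = 0.16), or 0.20 as the mean of its probe sets. SFN, the epithelial 14-3-3 protein that binds phosphorylated keratins, was -0.10, -0.16 and -0.30 in the control arrays and 0.10, 0.25 and 0.18 in the SDC1 siRNA arrays. Its difference was 0.37 ± 0.08 (limma adjusted p = 0.178), and the groups were separate in both genes. The remaining 2 of the 4 were DSP, desmoplakin, which ties keratins to desmosomes, at 0.19 ± 0.07, and TCHP, trichoplein, a keratin-binding protein, at -0.17 ± 0.07. PLEC, plectin, which links keratins to hemidesmosomes, was at 0.07 ± 0.07.

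Of 15 genes of the cornified envelope and stratification, 10 were above 0 with a median of 0.09. That median was 0.02 without control replicate 1, 0.05 without SDC1 siRNA replicate 1 and 0.03 with the brighter classes alone. SPRR3, a small proline-rich envelope protein, was -0.20, -0.12 and -0.14 with control siRNA and 0.15, 0.10 and 0.17 with SDC1 siRNA. Its difference was 0.29 ± 0.07 (limma adjusted p = 0.183). SPRR1B, of the same family, was -0.15, -0.32 and -0.06 with control siRNA and 0.21, 0.08 and 0.06 with SDC1 siRNA, a difference of 0.29 ± 0.09 (limma adjusted p = 0.31) from a probe set below 4. Both had separate groups, as had TGM1, the keratinocyte transglutaminase, at 0.18 ± 0.09. These 3 were all higher and 0 of the list were lower, where 8.26% and 8.47% of all genes had such groups. An unadjusted limma p under 0.05 was found for 2 of the 15 (13.3%), beside 10.6% of all genes. SPRR1A was at -0.06 ± 0.15, FLG, filaggrin, at -0.01 ± 0.09 and IVL, involucrin, at 0.22 ± 0.13, all with overlapping groups.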

How the data were processed

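The log2 signals were used as the authors deposited them. RMA is named in the submitters' processing notes, and a per-probe-set centring was read from the values (median 0 in 54675 of 54675 probe sets, tolerance 1e-06). The centring step is not given in the sources used here. Control probe sets (62) were left out, which left 54613. Of these, 41091 had 1 symbol, 1801 several and 11721 none in the platform annotation. Each gene was the mean of its probe sets in its brightest class, the classes being read from storage steps of the values. Groups were taken from titles and compared with limma 3.58.1 (R 4.3.3, lmFit and eBayes, group as the only term), Benjamini-Hochberg adjusted over all 19775 genes, threshold 0.05. The fit was tested on simulated data with planted differences that were all larger than any keratin difference reported here. That test therefore does not show how well differences of the keratins' size would be found. Members, classes, lists and named genes were chosen with earlier results of these data known. The text names SDC1, the simple keratins, other keratins with separate groups (up to 6 per direction by lowest p) and 2 genes of lowest p per partner list. Further genes were named after their values were seen. KRT6, KRT17, KRT81 and KRT86 were not analysed here. No 2 arrays were identical, with at most 52 of 19775 gene values equal. The labels name no batch, and the number of arrays limits the precision.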

Additional observations from a re-analysis of the deposited data

How the results depend on the processing

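No keratin gene, keratin probe set or partner gene passed the threshold in any of the alternatives: a replicate block, each array left out, arrays centred on medians, quantile normalization, array weights, a robust fit and, for genes, the mean of all probe sets, no _x_at and _s_at probe sets, brighter classes alone and an adjusted p of 0.01. The lowest keratin adjusted p over these fits was 0.139, for KRT72 with array weights. Among the partner genes the lowest limma adjusted p was 0.0587, for VIM with array weights, near the threshold. None of the 16 named genes besides SDC1 changed its side of the threshold. The median of the simple-epithelium keratins was 0.05 with array weights instead of 0.09, and 0.03 to 0.11 when arrays were left out. It rested on KRT7, KRT19 and KRT20 alone without _x_at and _s_at probe sets. The median of the stratified and hair keratins was 0.01 to 0.07 when arrays were left out. It exceeded that of the simple keratins without control replicate 3 (0.07 against 0.06) and equalled it with array weights (0.05). The median of the cornified envelope list, 0.09, was 0.02 to 0.10 when arrays were left out and 0.03 with the brighter classes alone. SDC1 kept its direction and lost its call with the replicate block (-0.84, adjusted p = 0.0929), after quantile normalization (-0.90, adjusted p = 0.083) and when any array was left out (-0.92 to -0.78, adjusted p from 0.0615 to 0.326), and the cause was not tested. Same-numbered arrays did not deviate together (correlations of deviations from the group means of -0.01, -0.26 and -0.11 for replicates 1, 2 and 3), so the numbers were not taken as pairs. The block moved the count of genes called from 5 to 0 and that of keratins from 0 to 0.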

Other observations

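Probe sets annotated to keratin pseudogenes and an antisense transcript were not among the members. The 2 probe sets of KRT8P12, a pseudogene of KRT8, gave log2 differences of 0.34 ± 0.08 and 0.21 ± 0.08 with separate groups, both in the class of 8 to 16 (limma adjusted p = 0.408 and 0.559 over all probe sets). The KRT8 probe set itself gave 0.09 ± 0.08. The probe sets of KRT19P2, KRT17P5 and KRT10-AS1 gave 0.10 ± 0.14, 0.14 ± 0.10 and 0.07 ± 0.10, with overlapping groups.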
